A study of Mus musculus with 12 samples.

Results

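The 38 genes described here are imprinted genes of the mouse, taken by symbol from a table of 55487 genes and grouped into 18 loci by their known imprinted cluster and expressed parental allele. All 38 matched a single row of the table, and 35 had enough counts to be tested. The other 3 are Igf2, Kcnq1 and Airn, which are given by their counts.

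An imprinted gene is transcribed mainly from the allele of a single parent, because the parental alleles carry different DNA methylation at a control region set in the germ line. In many clusters the unmethylated control region starts a long non-coding RNA or binds an insulator protein, and the protein-coding genes around it are then read from the other allele. Maternally expressed members often restrain growth of the embryo or placenta and paternally expressed members often promote it. The table counts reads of both alleles together, so every value here is a total over both alleles and the parental origin is background.

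The libraries came from the mouse embryonic stem cell line E14 Tg2a in 4 groups of 3. The genotypes compared were a knockout (KO) of Pcbp1, which encodes an RNA-binding protein of the poly(C)-binding family, in 3 independent clones, and a control in 3 independent clones that the sample labels call wild type (WT) and the series text calls Scr. Each clone was grown as epiblast-like cells (EpiLCs), by 48 h in N2B27 medium with bFGF, activin A and KOSR on fibronectin, and as naive cells in serum-free N2B27 medium with LIF, the MEK inhibitor PD0325901 and the GSK3β inhibitor CHIR99021. The 4 groups are EpiLC KO, EpiLC WT, naive KO and naive WT. How the knockout was made is not given in the sources used here, and each library is a whole culture of a single clone, so that fewer cells expressing a gene and less RNA per cell cannot be told apart.

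Total counts lay between 27146744 and 42204511 reads per library. Pcbp1 itself had 250, 302 and 265 CPM (TMM-scaled read counts over library size) in EpiLC KO libraries 1 to 3, against 692, 512 and 591 CPM in EpiLC WT, and 295, 302.5 and 303 CPM in naive KO, against 475, 418 and 474 CPM in naive WT. It fell in both conditions, with log2 fold changes of −1.14 ± 0.11 (SE, adjusted p = 0.000137) in EpiLCs and −0.60 ± 0.11 (adjusted p = 0.00599) in naive cells, and reads of the gene remained in every KO library. The 11 naive pluripotency markers summed to 274 to 409 CPM in EpiLC KO and 244 to 789 CPM in EpiLC WT, against 4728 to 5028 CPM in naive KO and 4981 to 5097 CPM in naive WT. EpiLC WT library 2 stood apart in these markers: it alone gave the sum of 789 CPM, with Esrrb at 215 and Zfp42 at 174.5 CPM, against 63.7 and 56.3 CPM of Esrrb and 38.1 and 35.02 CPM of Zfp42 in EpiLC WT libraries 1 and 3. Its Sall2, a marker of the formative state, stood at 48.8 CPM, against 244 and 215 CPM in those 2 libraries. The first principal component took 72% of the variance and the second 11%. Every adjusted p here is from edgeR's quasi-likelihood test over the 18134 genes tested, with Benjamini-Hochberg adjustment, and a gene was called when it was under 0.05.

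The most stable differences between KO and WT were those of Phlda2 and Slc22a18, lower in KO in both conditions, Grb10, lower in EpiLC KO, Nnat and Rtl1, higher in EpiLC KO, and Mirg, higher in naive KO. These calls held under all 11 alternatives run. Slc22a18, however, passed the filter on low counts only through the WT libraries, where it was high. Its falls were thus largely fixed once it was tested, and they count among the calls below. In EpiLCs, 12 of the 35 tested imprinted genes were called between KO and WT, 9 of them higher in KO and 3 lower. That is 34.3% of the members, against 15.1% of all genes tested, of which 7.22% rose and 7.86% fell. In naive cells 7 were called, 4 higher and 3 lower, which is 20.0% of the members against 9.23% of all genes tested, of which 4.27% rose and 4.95% fell. The median log2 fold change over the members was 0.54 in EpiLCs and 0.37 in naive cells, beside medians of 0.00 over all genes in both. The members and the other lists were chosen with earlier results of these data known, so these shares only describe the sets. Of 34 other imprinted genes tested, 14.7% were called in EpiLCs and 17.6% in naive cells, with medians of −0.03 and 0.13. KO and WT libraries did not overlap for 19 of the 35 members in EpiLCs and for 14 in naive cells, against 33.3% and 30.4% of all genes. By edgeR's unadjusted p, 17 members were under 0.05 in each condition, or 48.6%, against 30.1% of all genes tested in EpiLCs and 23.6% in naive cells. The counts leaned on single libraries, and those of all genes moved too. Without EpiLC KO library 1 the EpiLC count was 5 (14.3%), against 7.37% of all genes. Without EpiLC WT library 3 it was 7 (19.4%), against 9.30%. Without EpiLC WT library 2 it was again 12 (33.3%), with Ube3a and H19 among them, against 16.5%. The naive count was 4 (11.1%) without naive KO library 1, 2 or 3, against 3.60%, 6.10% and 9.265% of all genes. Without naive WT library 3 it was 3 (8.33%), against 4.52%.

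Split by allele, the 15 tested maternally expressed members held 4 that rose and 3 that fell in EpiLCs (46.7% called), and 3 that rose and 3 that fell in naive cells (40%). Over all genes tested, 15.1% were called in EpiLCs and 9.23% in naive cells. Of the 18 tested paternally expressed members, 4 rose in EpiLCs (22.2%) and 1 in naive cells (5.56%). None was called lower in either, beside the small shares of 7.86% and 4.95% of all genes that fell. By edgeR's unadjusted p, 5 of those 18 were under 0.05 in EpiLCs and 7 in naive cells, beside the 30.1% and 23.6% of all genes. The remaining pair, Gnas and Inpp5f, have isoform-specific imprinting, and Inpp5f rose in EpiLCs.

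**Figure D1:**
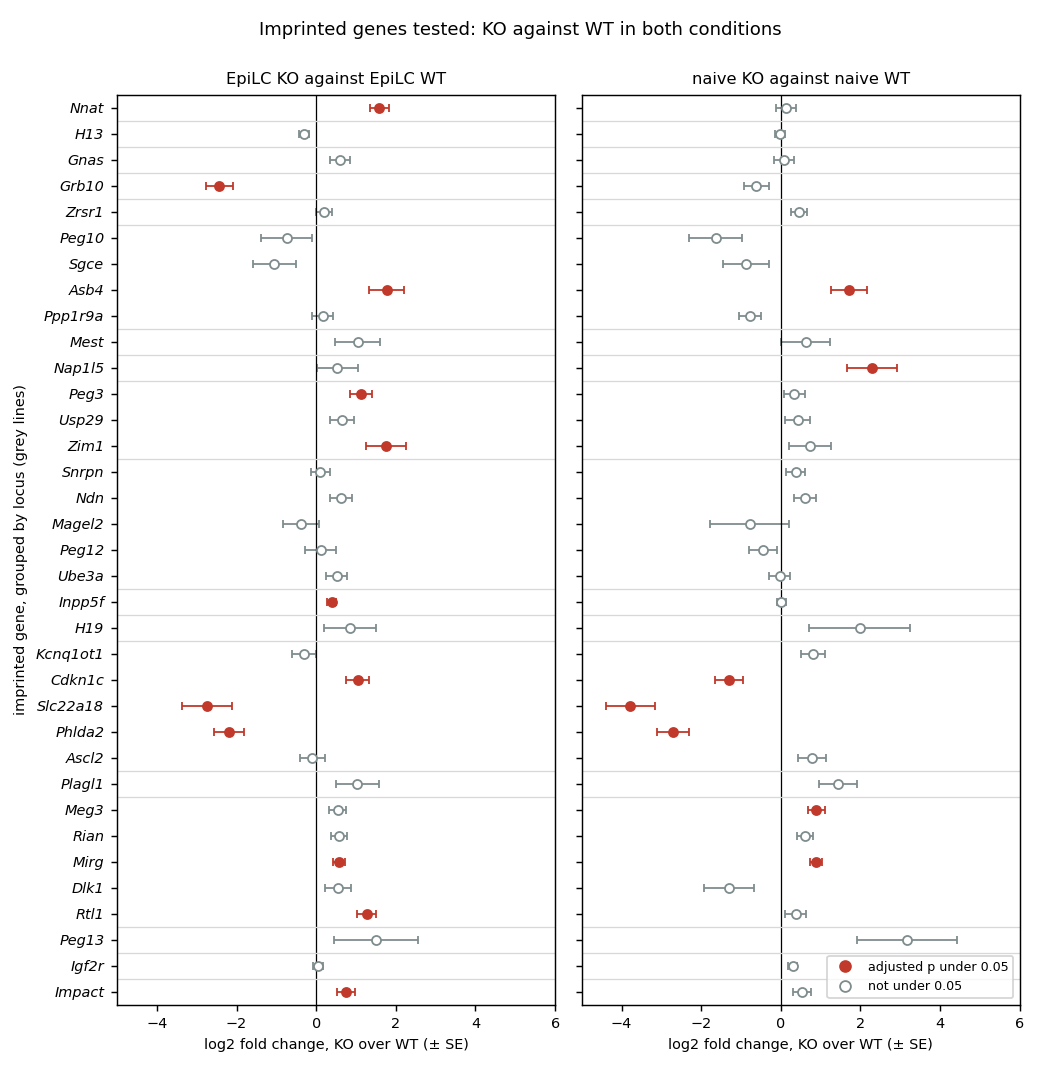
Log2 fold change of the 35 tested imprinted genes, KO over WT, with the standard error as bars, in EpiLCs (left) and naive cells (right); filled red points passed an adjusted p under 0.05 and grey lines part the loci. Slc22a18 and Phlda2 lie to the left of 0 in both panels, Grb10 is filled in EpiLCs, and Asb4 and Mirg are filled to the right of 0 in both.

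Some markers of other cell types differed between KO and WT. Of 10 tested endoderm markers, 8 rose in EpiLC KO and none fell. Cubn, Lama1, Afp and Foxa2 led them, with log2 fold changes of 2.85, 2.59, 4.12 and 2.78 (adjusted p = 0.000821, 0.000922, 0.00164 and 0.00311). Afp, Foxa2, Sox17 and Sox7 passed the filter on low counts only through the EpiLC KO libraries, where they were high. Their rises were thus largely fixed once they were tested, and they count among the 8. The 13 listed markers summed to 94.7 to 133 CPM in EpiLC KO, against 26.5 to 51.5 CPM in EpiLC WT. Amn and Apoa1 averaged 0.18 and 0.061 CPM in EpiLC KO, against 0.14 and 0.059 CPM in EpiLC WT. Ttr had 0, 0.026 and 0 CPM in EpiLC KO and 0 in every EpiLC WT library. In naive cells 1 of the 10 rose and 8 had an unadjusted p under 0.05 by edgeR's test, 4 of the 10 log2 fold changes were positive and their median was −0.61. The naive sums were 335 to 589 CPM in KO and 242 to 286 CPM in WT, most of it Lama1, which had 389, 583 and 323 CPM in naive KO, against 275, 227 and 280 CPM in naive WT. The 10 listed trophoblast markers summed to 47.5 to 60.9 CPM in EpiLC KO and 102 to 121 CPM in EpiLC WT, and to 100 to 128 CPM in naive KO and 85.6 to 111 CPM in naive WT, with Prl3d1 at 0 in every library. The keratin gene Krt18 averaged 27.55 CPM in EpiLC KO and 85.1 CPM in EpiLC WT, and makes up much of the EpiLC sums. Tfap2c, at 105 CPM in naive KO and 83.2 CPM in naive WT, makes up most of the naive sums. Of the 7 tested trophoblast genes, Krt18 fell and Eomes rose in EpiLC KO (−1.63 and 1.01, adjusted p = 0.00153 and 0.035). In naive KO 2 fell, Krt18 and Krt8 (−1.49 and −1.71, adjusted p = 0.0131 and 0.0192). Among the other marker lists, Neurod1 rose in EpiLC KO (2.18, adjusted p = 0.00164) and in naive KO (2.64, adjusted p = 0.00146). Gsc, Evx1 and Usp17lc rose in EpiLC KO, and the filter on low counts kept Evx1 only through those libraries. In naive KO, Col1a1, Zic2 and Lin28a rose and Kdr fell. Over all genes tested, 15.1% were called in EpiLCs and 9.23% in naive cells, and 30.1% and 23.6% had an unadjusted p under 0.05 by edgeR's test. The part of these cell types in the levels of the imprinted genes was not tested.

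The largest falls among the members were in the Kcnq1/Cdkn1c domain of chromosome 7, a cluster in which the paternal non-coding RNA Kcnq1ot1 is known to silence its neighbours in cis and the protein-coding members are read from the maternal allele. Phlda2 (chr7:143501545-143503150, minus strand) encodes a small pleckstrin-homology protein that limits placental growth. It had 5.28, 4.12 and 2.06 CPM in EpiLC KO libraries 1 to 3, against 17.9, 15.8 and 18.6 CPM in EpiLC WT, and 1.34, 0.557 and 1.01 CPM in naive KO, against 7.50, 3.85 and 7.54 CPM in naive WT. Every KO library lay below every WT library in both conditions. The log2 fold change was −2.19 ± 0.37 (SE, adjusted p = 0.00284) in EpiLCs and −2.70 ± 0.40 (adjusted p = 0.0017) in naive cells, so that Phlda2 fell 4.55-fold and 6.495-fold.

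Slc22a18 (chr7:143473736-143499334, plus strand), a membrane transporter of the organic cation family, lies beside Phlda2 and also fell in both conditions. It had 0.299, 0.0793 and 0.0282 CPM in EpiLC KO, against 0.457, 1.31 and 1.16 CPM in EpiLC WT. In naive KO it had 0.267, 0.167 and 0.0615 CPM, against 2.11, 2.47 and 2.39 CPM in naive WT. The KO values rest on few reads, with 13, 3 and 1 counts in EpiLC KO and 9, 6 and 2 in naive KO. WT libraries had 17, 35 and 35 counts in EpiLCs and 66, 77 and 90 in naive cells, and these carried Slc22a18 past the filter on low counts. Its falls were thus largely fixed once it was tested. The log2 fold change was −2.74 ± 0.63 (SE, adjusted p = 0.0134) in EpiLCs and −3.78 ± 0.62 (adjusted p = 0.00298) in naive cells, and without EpiLC KO library 1 the EpiLC value was −4.06 (adjusted p = 0.00837).

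The starts of these genes are shown because their adjusted p between KO and WT was among the smallest of the members. They differ in base composition. Sequences are from RefSeq (GRCm38.p6), 250 bases before to 50 after the start, 5′ to 3′. The hexamer TGCCGC, the core of the site that the imprint-maintaining zinc-finger protein ZFP57 binds when methylated, was searched on both strands and would stand in capitals; neither sequence holds it. The Phlda2 window has 26 CpG pairs and the Slc22a18 window 2, beside a median of 7 over the 32851 promoters of the table.
Phlda2 promoter, chr7:143502475-143502774 on the minus strand: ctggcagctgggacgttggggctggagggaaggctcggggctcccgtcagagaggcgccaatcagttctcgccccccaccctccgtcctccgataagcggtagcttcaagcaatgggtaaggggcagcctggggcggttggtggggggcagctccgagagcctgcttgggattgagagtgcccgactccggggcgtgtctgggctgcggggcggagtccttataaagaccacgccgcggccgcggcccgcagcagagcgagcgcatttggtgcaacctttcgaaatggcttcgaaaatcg
Slc22a18 promoter, chr7:143473539-143473838 on the plus strand: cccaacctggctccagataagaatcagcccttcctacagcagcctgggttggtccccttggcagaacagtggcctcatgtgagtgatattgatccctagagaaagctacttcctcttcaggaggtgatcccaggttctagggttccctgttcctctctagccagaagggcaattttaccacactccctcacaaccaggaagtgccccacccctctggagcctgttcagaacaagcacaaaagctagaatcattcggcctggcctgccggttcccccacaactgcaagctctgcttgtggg

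Cdkn1c (chr7:143458339-143461050, minus strand), which encodes the cyclin-dependent kinase inhibitor p57, went opposite ways in the 2 conditions. In EpiLCs it had 35.6, 26.1 and 15.6 CPM in KO libraries 1 to 3, against 14.9, 10.6 and 12.0 CPM in WT, and rose by 1.04 ± 0.30 on the log2 scale (SE, adjusted p = 0.0338). In naive cells it had 1.01, 0.418 and 0.707 CPM in KO, against 1.70, 1.63 and 1.91 CPM in WT, and fell by 1.30 ± 0.36 on the log2 scale (adjusted p = 0.0388). The groups did not overlap in either condition, though EpiLC KO library 3 at 15.6 CPM lay close to EpiLC WT library 1 at 14.9 CPM. The difference between the 2 effects, 2.34 ± 0.46 on the log2 scale, had an unadjusted p of 0.000239 and an adjusted p of 0.0571, which misses the threshold. The EpiLC call was lost without EpiLC KO library 1 (0.73, adjusted p = 0.165) or 2, or without any EpiLC WT library, and the naive call with only the 2 naive groups fitted (−1.29, adjusted p = 0.0582), without naive KO library 2 (−1.05, adjusted p = 0.116) or 3, or without any naive WT library. An opposite-strand annotation, Gm44732, covers 30.7% of the exon bases of Cdkn1c, and reads there could not be given to either gene.

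The ratio of Cdkn1c to Phlda2 reads within a library needs no scaling for library size. It was 6.74, 6.33 and 7.56 in EpiLC KO, against 0.832, 0.670 and 0.645 in EpiLC WT, and 0.756, 0.750 and 0.697 in naive KO, against 0.227, 0.425 and 0.254 in naive WT. The KO clones lay above the WT clones in both conditions.

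The remaining members of the domain were not called between KO and WT. Kcnq1ot1 (chr7:143203458-143296549, minus strand), the silencing RNA itself, had 6.29, 5.84 and 9.41 CPM in EpiLC KO, against 5.45, 14.04 and 7.25 CPM in EpiLC WT, which overlap. In naive cells it had 20.6, 16.6 and 21.01 CPM in KO, against 9.84, 9.97 and 13.2 CPM in WT, a log2 fold change of 0.81 ± 0.31 with an adjusted p of 0.122 although the groups did not overlap. Kcnq1ot1 fell in EpiLCs relative to naive cells in KO clones, by 1.43 on the log2 scale (adjusted p = 0.00171), and its log2 fold change in WT clones was −0.31 (adjusted p = 0.418), or −0.80 without EpiLC WT library 2 (adjusted p = 0.0168). Ascl2, a transcription factor of placental trophoblast, averaged 4.92 ± 1.39 CPM in EpiLC KO and 5.25 ± 1.16 CPM in EpiLC WT, and 1.83 ± 0.751 CPM in naive KO and 1.06 ± 0.225 CPM in naive WT (SD, n = 3 each). Kcnq1, a potassium channel gene, had at most 10 counts in any library and was not tested.

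**Figure D2:**
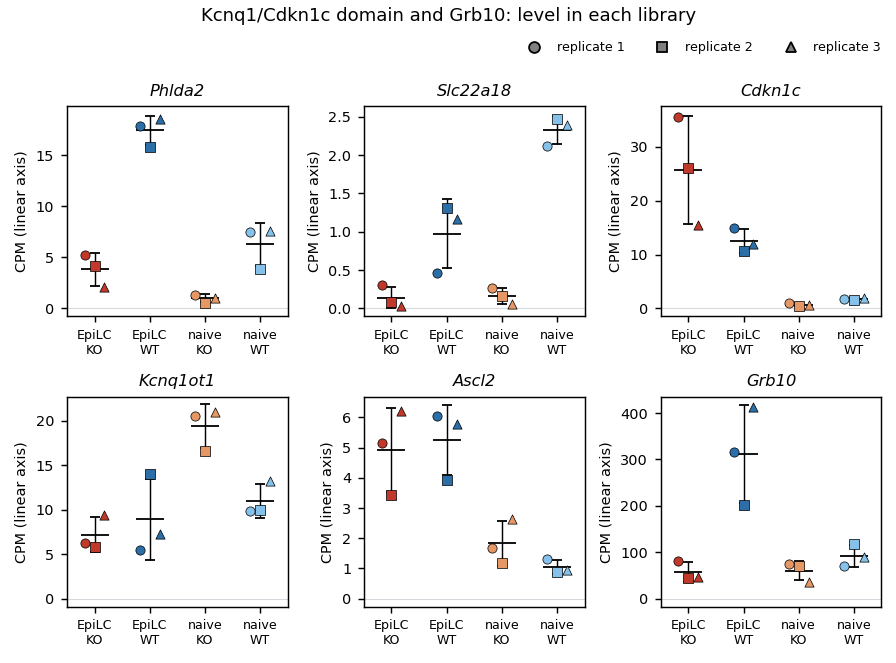
Level in CPM (linear axis) of 5 genes of the Kcnq1/Cdkn1c domain and of Grb10 in each of the 12 libraries; symbols give the replicate number, the horizontal line the mean and the bars the SD of 3 libraries, with lower bars stopped at 0. Phlda2 and Slc22a18 lie lower in KO than in WT in both conditions, Cdkn1c stands above EpiLC WT in EpiLC KO, and Grb10 stands at 203 to 414 CPM in EpiLC WT and at 117 CPM or less elsewhere.

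The genes around the domain were used to see how far the difference reached. Within 1 Mb of its members, 25 other genes were tested. In EpiLCs none of them rose and 2 fell, with a median log2 fold change of −0.09 and 5 unadjusted p-values under 0.05 by edgeR's test. In naive cells 2 rose and 3 fell, with a median of 0.00 and 9 unadjusted p-values under 0.05. Over all genes tested, 15.1% were called in EpiLCs and 9.23% in naive cells, and 30.1% and 23.6% had an unadjusted p under 0.05. These shares stand beside the neighbour counts of the other loci as well. The neighbours that fell are named below, and the 2 that rose in naive cells are not. Nap1l4, the first gene beyond Phlda2, had a log2 fold change of −0.09 ± 0.09 in EpiLCs and 0.01 ± 0.09 in naive cells. Farther along on that side, Cars fell in EpiLCs (−0.89, adjusted p = 0.00669), Nadsyn1 fell in both (−1.20 in EpiLCs, adjusted p = 0.00183, and −0.66 in naive cells, adjusted p = 0.0465), and Osbpl5 and Dhcr7 fell in naive cells (−2.05 and −0.87, adjusted p = 0.0397 and 0.0247).

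**Figure D3:**
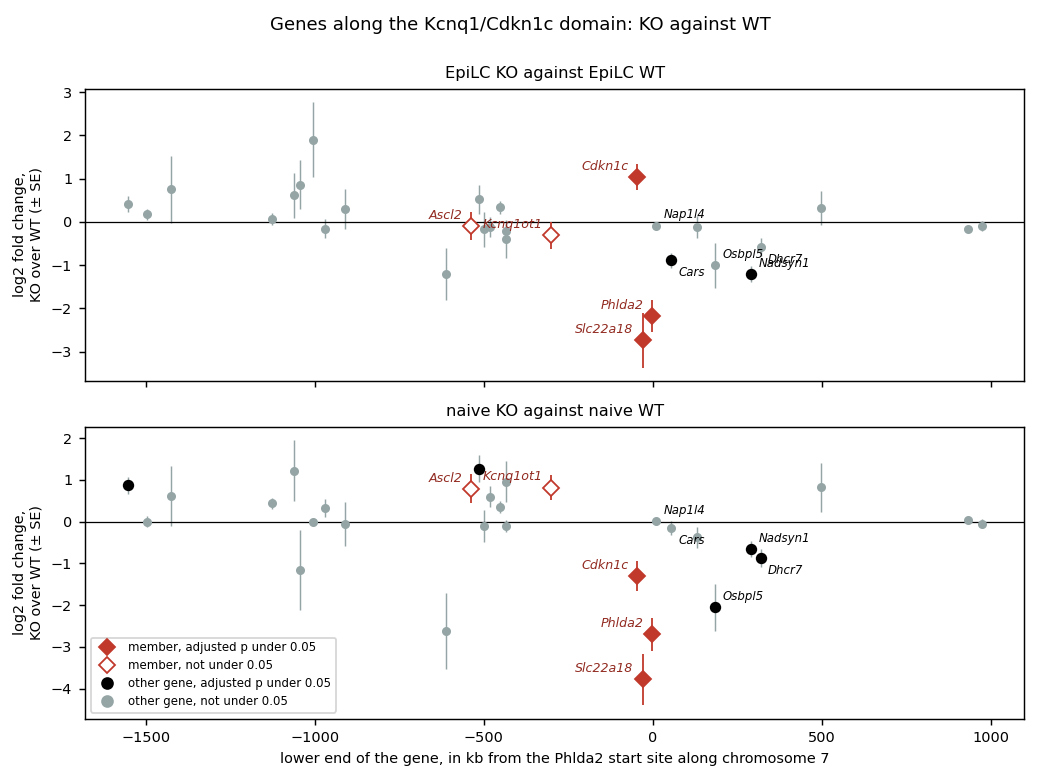
Log2 fold change, KO over WT with standard errors, of the genes along chromosome 7 around the Kcnq1/Cdkn1c domain, by distance in kb of the lower end of each gene from the Phlda2 start, in EpiLCs (top) and naive cells (bottom). Phlda2 and Slc22a18 lie at −2.19 and −2.74 in EpiLCs and at −2.70 and −3.78 in naive cells, while the neighbour Nap1l4 lies at −0.09 and 0.01.

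Grb10 (chr11:11930508-12038683, minus strand) encodes an adaptor that binds the insulin and IGF1 receptors and damps their signal, and is maternally expressed outside neurons. It had 81.3, 44.7 and 46.3 CPM in EpiLC KO, against 316, 203 and 414 CPM in EpiLC WT, with no overlap, and fell by 2.44 ± 0.34 on the log2 scale (SE, adjusted p = 0.000917). In naive cells it had 74.0, 70.2 and 36.6 CPM in KO, against 70.1, 117 and 88.9 CPM in WT, which overlap (−0.61 ± 0.32, adjusted p = 0.28). Between conditions, Grb10 rose in WT clones by 1.76 ± 0.33 on the log2 scale (adjusted p = 0.000704), whereas its log2 fold change in KO clones was −0.07 ± 0.32 (adjusted p = 0.872). The difference between these 2 changes, −1.82 ± 0.46, had an unadjusted p of 0.0017 and an adjusted p of 0.125 and was not called. Of 7 other genes within 1 Mb, none fell and 1, Zpbp, rose in each condition.

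Nnat (chr2:157560078-157562522, plus strand), which encodes the small membrane protein neuronatin and lies in an intron of Blcap, had the smallest adjusted p of the members that rose. It had 12.8, 16.8 and 14.7 CPM in EpiLC KO, against 5.83, 4.11 and 4.75 CPM in EpiLC WT, and rose by 1.59 ± 0.24 on the log2 scale (SE, adjusted p = 0.00136). Its naive levels were 1.87, 2.17 and 1.23 CPM in KO, against 1.86, 1.41 and 1.57 CPM in WT, which overlap (0.13 ± 0.25, adjusted p = 0.805). Its host gene Blcap had log2 fold changes of 0.23 ± 0.15 (adjusted p = 0.309) in EpiLCs and 0.27 ± 0.14 (adjusted p = 0.28) in naive cells. Nnat rose in EpiLCs relative to naive cells in both genotypes, by 3.06 in KO and 1.60 in WT on the log2 scale (adjusted p = 8.51e-07 and 0.000155), and the difference between those rises had an adjusted p of 0.102.

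The starts of Grb10 and Nnat were picked, like those above, by smallest adjusted p between KO and WT. Both windows printed hold the hexamer once, as GCGGCA in capitals on the strand printed. Mirg and Peg3, next by adjusted p among members with a promoter, hold no hexamer in theirs and are not printed. The Grb10 window has 45 CpG pairs and the Nnat window 17. The table holds 2 promoters of Grb10, and the other (chr11:12027922-12028221, minus strand) has 9 CpG pairs and no hexamer.
Grb10 promoter, chr11:12037371-12037670 on the minus strand: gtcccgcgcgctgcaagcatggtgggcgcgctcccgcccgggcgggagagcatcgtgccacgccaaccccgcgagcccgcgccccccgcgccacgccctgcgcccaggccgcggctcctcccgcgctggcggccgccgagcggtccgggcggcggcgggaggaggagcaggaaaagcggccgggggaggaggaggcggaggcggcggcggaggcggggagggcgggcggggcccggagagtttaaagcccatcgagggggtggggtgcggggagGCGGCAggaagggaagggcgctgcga
Nnat promoter, chr2:157559828-157560127 on the plus strand: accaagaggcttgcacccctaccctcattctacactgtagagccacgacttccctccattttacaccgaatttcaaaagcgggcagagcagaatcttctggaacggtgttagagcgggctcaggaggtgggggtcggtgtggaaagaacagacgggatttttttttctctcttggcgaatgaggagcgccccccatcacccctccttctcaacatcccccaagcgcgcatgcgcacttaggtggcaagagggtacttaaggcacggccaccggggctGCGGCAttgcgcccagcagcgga
Of the 38 members, 30 had at least 1 promoter in the RefSeq table, 45 promoters in all. The hexamer stood in 10 of the 45, or 22.2%, and in 3813 of the 32851 promoters of the table, or 11.6%. The members' windows had a median of 13 CpG pairs, so the 2 shares are not matched for base composition. A match is a string of letters in this window and no measure of binding.

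In the Dlk1/Meg3 domain of chromosome 12, the maternally expressed Mirg rose in KO clones in both conditions, Meg3 in naive cells, and Rian was called in neither. Meg3, Rian and Mirg lie in a row on the plus strand; Rian carries small nucleolar RNAs and Mirg a large group of microRNAs. Mirg (chr12:109729764-109749460) had 39.2, 37.2 and 38.4 CPM in EpiLC KO, against 30.7, 19.8 and 26.4 CPM in EpiLC WT, and 25.4, 27.4 and 27.8 CPM in naive KO, against 15.9, 15.5 and 12.3 CPM in naive WT. It rose in both conditions, with log2 fold changes of 0.58 ± 0.16 (SE, adjusted p = 0.0281) in EpiLCs and 0.88 ± 0.16 (adjusted p = 0.0052) in naive cells, and in neither did the groups overlap. The EpiLC call of Mirg was lost without any EpiLC KO library in turn and without EpiLC WT library 2 (0.42, adjusted p = 0.0594) or 3.

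Meg3 (chr12:109541001-109571726) had 435, 344 and 333 CPM in EpiLC KO, against 342, 159 and 264 CPM in EpiLC WT, and 321, 317 and 314 CPM in naive KO, against 197, 170 and 146 CPM in naive WT. It rose in naive cells (0.89 ± 0.22, adjusted p = 0.0224), where the groups did not overlap, and overlapped in EpiLCs (0.54 ± 0.21, adjusted p = 0.111). Its naive call was lost without naive KO library 1 or 2, or naive WT library 2 or 3 (0.76, adjusted p = 0.0997). Rian had no overlap in either condition and was not called in either, with log2 fold changes of 0.57 ± 0.20 (adjusted p = 0.067) in EpiLCs and 0.61 ± 0.20 (adjusted p = 0.0734) in naive cells. Without EpiLC WT library 1 both passed in EpiLCs, Meg3 at 0.80 and Rian at 0.77 (adjusted p = 0.0277 and 0.0343). The naive KO libraries differed little among themselves for these RNAs, with a highest Meg3 level 1.02 times the lowest, against 1.35 times in naive WT.

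The paternally expressed protein genes of the domain are Rtl1, a retrotransposon-derived gene needed for the placental vessels, and Dlk1, a membrane protein related to Notch ligands. Rtl1 (chr12:109589193-109600330, minus strand) had 11.0, 8.43 and 7.69 CPM in EpiLC KO, against 4.73, 2.91 and 3.59 CPM in EpiLC WT, and rose by 1.27 ± 0.24 on the log2 scale (SE, adjusted p = 0.0048). Its naive levels were 1.01, 1.31 and 1.38 CPM in KO, against 1.03, 0.897 and 0.929 CPM in WT, which overlap (0.38 ± 0.26, adjusted p = 0.422). Dlk1 averaged 4.32 ± 0.505 CPM in EpiLC KO and 2.96 ± 0.697 CPM in EpiLC WT (SD, n = 3 each; log2 fold change 0.54 ± 0.33 SE, adjusted p = 0.298), and had 9 counts or fewer in every naive library. Of the 24 other genes tested within 1 Mb of the domain, none was called in EpiLCs by edgeR's test, where 4 had an unadjusted p under 0.05 and the median log2 fold change was −0.10. In naive cells 2 rose and 1 fell, among them B830012L14Rik between Rian and Mirg (1.51, adjusted p = 0.0213) and Dio3 at the far end of the domain (−1.72, adjusted p = 0.0325).

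The mouse Rtl1 transcript is faced by microRNAs on the opposite, maternally expressed strand that are fully complementary to it, and Mirg is the host of others. Reads were counted without regard to strand, so reads of the transcript opposite Rtl1 cannot be told apart from Rtl1 itself outside the annotated microRNAs, which cover 8.40% of its exon bases. Of the microRNAs in the RefSeq table, 13 mature forms lie in the span of Rtl1 and 26 in that of Mirg. Those of the opposite strand that are best known are shown, with the seed (bases 2 to 8) in capitals, followed by 4 of Mirg. Mature microRNAs were not measured in these polyadenylated-RNA libraries.
mmu-miR-431-5p: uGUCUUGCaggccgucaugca
mmu-miR-433-3p: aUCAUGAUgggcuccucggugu
mmu-miR-127-3p: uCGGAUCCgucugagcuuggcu
mmu-miR-434-3p: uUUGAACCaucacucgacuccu
mmu-miR-136-5p: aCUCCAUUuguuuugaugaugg
mmu-miR-134-5p: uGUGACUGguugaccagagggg
mmu-miR-410-3p: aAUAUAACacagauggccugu
mmu-miR-453: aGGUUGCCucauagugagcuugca
mmu-miR-496a-5p: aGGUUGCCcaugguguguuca
The 26 mature forms of Mirg have 25 seeds, and the pair that share a seed are miR-453 and miR-496a-5p, with GGUUGCC. The 13 in the span of Rtl1 have 13 seeds.

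**Figure D4:**
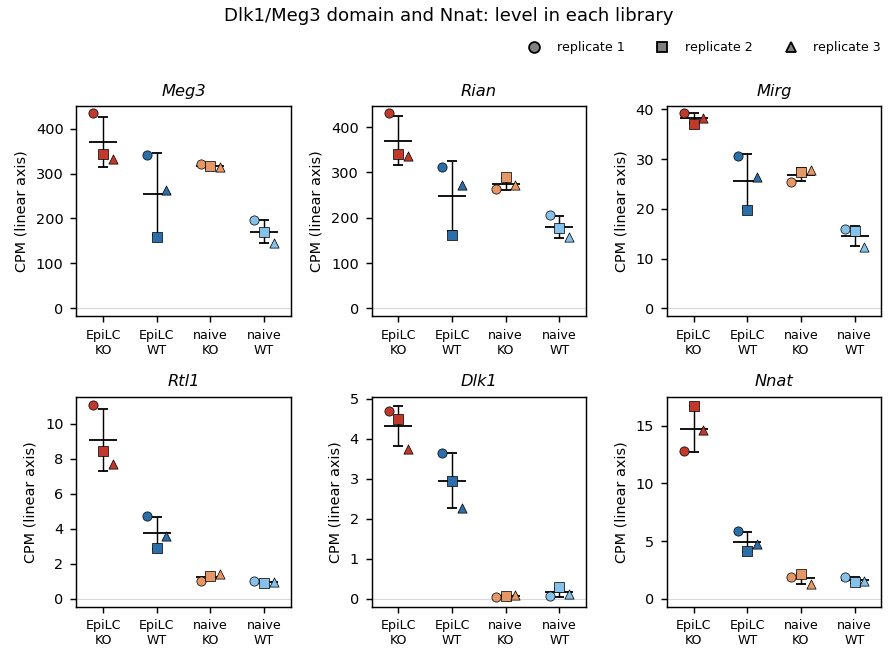
Level in CPM (linear axis) of the 5 genes of the Dlk1/Meg3 domain and of Nnat in each library, with the mean and SD of 3 libraries as line and bars. Mirg stands at 37.2 to 39.2 CPM in EpiLC KO and at 19.8 to 30.7 CPM in EpiLC WT, and Rtl1 and Nnat lie higher in EpiLC KO than in the other 3 groups.

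In the Peg3 domain of chromosome 7, which holds zinc-finger genes and the deubiquitinase gene Usp29, all 3 members stood above EpiLC WT in every EpiLC KO library. Peg3 (chr7:6703892-6730431, minus strand), a paternally expressed zinc-finger protein, had 259, 125 and 219 CPM in EpiLC KO, against 95.9, 80.3 and 100 CPM in EpiLC WT, and rose by 1.12 ± 0.27 on the log2 scale (SE, adjusted p = 0.0152). Without EpiLC KO library 1 the value was 0.90 and the adjusted p 0.0698. Its naive levels were 69.5, 44.5 and 78.6 CPM in KO, against 45.5, 41.8 and 65.2 CPM in WT, which overlap (0.34 ± 0.27, adjusted p = 0.488).

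Zim1, a maternally expressed zinc-finger gene beside Peg3, had 1.93, 1.03 and 1.27 CPM in EpiLC KO, against 0.457, 0.560 and 0.233 CPM in EpiLC WT, and rose by 1.76 ± 0.50 (adjusted p = 0.0351). That call was lost without EpiLC KO library 1 (1.46, adjusted p = 0.135) or 3, or EpiLC WT library 1 or 3. In naive cells it had 0.951, 0.195 and 0.523 CPM in KO, against 0.449, 0.256 and 0.292 CPM in WT, which overlap (0.74 ± 0.54, adjusted p = 0.444). Usp29 did not overlap in EpiLCs and was not called (0.65 ± 0.30, adjusted p = 0.169). Of 27 other genes within 1 Mb, 4 rose and 2 fell in EpiLCs, and 7 rose and 1 fell in naive cells, among them the imprinted neighbour Zim2 in naive cells (2.93, adjusted p = 0.00337).

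At the Peg10/Sgce locus of chromosome 6 a single member was called, and it rose in both conditions. Asb4 (chr6:5383386-5433022, plus strand), an ankyrin-repeat protein of a ubiquitin ligase, had 1.56, 1.03 and 1.49 CPM in EpiLC KO, against 0.215, 0.672 and 0.332 CPM in EpiLC WT, and 0.951, 1.00 and 1.26 CPM in naive KO, against 0.256, 0.545 and 0.186 CPM in naive WT. The groups did not overlap in either condition. Asb4 rose by 1.77 ± 0.45 (adjusted p = 0.0202) in EpiLCs and by 1.71 ± 0.46 (adjusted p = 0.0354) in naive cells on the log2 scale. The EpiLC call was lost without EpiLC KO library 1 or 3 or EpiLC WT library 1 (1.44, adjusted p = 0.0778) or 3, and the naive call with each naive KO library left out in turn and without naive WT library 1 or 3 (1.39, adjusted p = 0.144). The EpiLC levels rest on 39 to 68 counts per library in EpiLC KO and 8 to 18 in EpiLC WT. Peg10, a retrotransposon-derived gene of the placenta, Sgce, a sarcoglycan, and Ppp1r9a, which encodes neurabin, overlapped between KO and WT in both conditions and were not called. The log2 fold changes of Peg10 and Sgce leaned on WT library 2, which stood far above the other WT libraries. That of Peg10 was −0.74 in EpiLCs (adjusted p = 0.475) and 0.35 without EpiLC WT library 2 (adjusted p = 0.711), and −1.64 in naive cells (adjusted p = 0.158) and −0.53 without naive WT library 2 (adjusted p = 0.66). Sgce had −1.05 in EpiLCs (adjusted p = 0.214) and −0.32 without EpiLC WT library 2, and −0.87 in naive cells (adjusted p = 0.388) and −0.02 without naive WT library 2. Ppp1r9a had 0.16 in EpiLCs and −0.78 in naive cells (adjusted p = 0.74 and 0.104), and 0.36 and −0.54 without WT library 2 of the same condition.

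Nap1l5 (chr6:58905233-58907076, minus strand) is a paternally expressed retrogene in an intron of Herc3. It had 3.44, 2.03 and 5.77 CPM in EpiLC KO, against 1.77, 4.44 and 1.60 CPM in EpiLC WT, which overlap (0.53 ± 0.52, adjusted p = 0.528). In naive cells it had 1.28, 0.891 and 1.78 CPM in KO, against 0.192, 0.513 and 0.106 CPM in WT, and rose by 2.296 ± 0.63 on the log2 scale (SE, adjusted p = 0.0386), or by 3.10 without naive WT library 2 (adjusted p = 0.0246). The call was lost without naive KO library 1 or 3, or naive WT library 1 or 3 (1.86, adjusted p = 0.143). The host gene Herc3 rose as well, by 0.54 ± 0.13 in EpiLCs (adjusted p = 0.0176) and 1.15 ± 0.13 in naive cells (adjusted p = 0.000369), and how many of the reads counted for Nap1l5 came from the intron of Herc3 was not tested.

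Inpp5f, a phosphoinositide phosphatase gene with an imprinted short form, had 64.1, 55.2 and 57.4 CPM in EpiLC KO, against 44.6, 42.5 and 47.6 CPM in EpiLC WT, and rose by 0.39 ± 0.11 on the log2 scale (adjusted p = 0.0374). In naive cells it had 32.5, 30.2 and 29.6 CPM in KO, against 27.6, 29.0 and 35.0 CPM in WT, which overlap. Its EpiLC call was lost without any single one of the 6 EpiLC libraries, with values between 0.33 and 0.44, without the filter on low counts (0.37, adjusted p = 0.127) and with only the 2 EpiLC groups fitted (0.41, adjusted p = 0.0541). Impact, an inhibitor of the kinase GCN2, had 292, 243 and 277 CPM in EpiLC KO, against 118, 219 and 149 CPM in EpiLC WT, and rose by 0.74 ± 0.23 (adjusted p = 0.0465). That call was lost with only the 2 EpiLC groups fitted (0.76, adjusted p = 0.0534), without any EpiLC KO library in turn and without EpiLC WT library 1 (0.55, adjusted p = 0.151) or 3. Its naive levels were 200, 226 and 159 CPM in KO, against 97.0, 167 and 142 CPM in WT, which overlap (0.53 ± 0.23, adjusted p = 0.181). Of 9 neighbours of Impact within 1 Mb, 3 rose in each condition, and Ttc39c rose most, by 2.62 in EpiLCs and 2.33 in naive cells (adjusted p = 8.08e-05 and 0.000166).

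At the H19/Igf2 locus, EpiLC levels differed widely between WT clones. H19, a maternally expressed non-coding RNA, had 15.7, 20.4 and 25.1 CPM in EpiLC KO, against 3.65, 26.9 and 3.62 CPM in EpiLC WT, where library 2 stood apart. The log2 fold change of KO over WT was 0.85 ± 0.66 (SE, adjusted p = 0.423), and without EpiLC WT library 2 it was 2.48 (adjusted p = 0.00349). In naive cells H19 had 5, 5 and 23 counts in KO libraries, against 3, 3 and 2 counts in WT. Igf2, the paternally expressed growth factor of the locus, had 17, 15 and 4 counts in EpiLC KO, against 0, 0 and 1 in EpiLC WT, and 1, 0 and 0 counts in naive KO, against none in naive WT. It was not tested, and 64.5% of its exon bases are shared with other annotated genes, mainly Gm49394, where reads were not counted.

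Igf2r, the maternally expressed receptor that removes IGF2, was higher in naive KO than in naive WT without overlap, at 319.5 ± 17.8 against 261 ± 39.3 CPM (SD, n = 3 each), and was not called (0.29 ± 0.12 SE, adjusted p = 0.162). It fell in EpiLCs relative to naive cells by 1.01 in KO and by 0.77 in WT clones on the log2 scale (adjusted p = 2.1e-05 and 0.000207). Airn, the paternal RNA that silences Igf2r in cis in mouse, had at most 12 counts in any library and was not tested.

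Mest, a paternally expressed hydrolase-like gene, and Plagl1, a zinc-finger regulator of other imprinted genes, both changed between conditions. Mest had 156, 182 and 192 CPM in EpiLC KO, against 27.2, 135 and 95.8 CPM in EpiLC WT, with no overlap and an adjusted p of 0.242 for a log2 fold change of 1.04 ± 0.57. It rose in EpiLCs relative to naive cells by 4.03 in KO and 3.61 in WT clones (adjusted p = 0.000182 and 0.000443). Plagl1 fell by 4.37 in KO and by 3.96 in WT clones (adjusted p = 2.55e-05 and 7.57e-05), the WT value being −3.21 without naive WT library 2 and −4.60 without EpiLC WT library 2. In naive cells Plagl1 had 95.3, 82.3 and 127 CPM in KO, against 18.5, 68.1 and 25.5 CPM in WT, with no overlap and an adjusted p of 0.081 (log2 fold change 1.44 ± 0.48). Without naive WT library 2 the log2 fold change was 2.18 and the adjusted p 0.0133.

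None of the 5 members of the Snrpn/Ube3a domain was called between KO and WT in either condition, and 1 of the 5 had an unadjusted p under 0.05 by edgeR's test in EpiLCs and none in naive cells. Their log2 fold changes lay between −0.39 and 0.62 in EpiLCs and between −0.78 and 0.61 in naive cells. Between conditions, Snrpn, which encodes a splicing protein, rose by 2.38 in KO and 2.65 in WT clones (adjusted p = 5.65e-06 and 3.08e-06). Magel2, a ubiquitin ligase regulator, rose by 5.14 and 4.74 (adjusted p = 5.03e-05 and 5.45e-05), on 3 counts or fewer in every naive library. It passed the filter on low counts only through the EpiLC libraries, where it was high. The KO value of Magel2 was 6.42 without naive KO library 3. Peg12 fell by 1.15 in KO and by 1.71 in WT clones (adjusted p = 0.0203 and 0.00238), though the KO call was lost without naive KO library 1 or 3 or EpiLC KO library 2, while Ndn and Ube3a were not called. Without EpiLC WT library 2, Ube3a passed between KO and WT in EpiLCs (0.87, adjusted p = 0.0274). Of the exon bases of Snrpn 34.1% are shared with other annotated genes, among them Snurf on the same strand, and of Ube3a 27.3%, among them Snhg14 on the opposite strand.

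Gnas, H13, Zrsr1 and Peg13 are single members of their loci and were not called between KO and WT. Gnas, which encodes the stimulatory G-protein alpha subunit, stood at only 5.74 to 8.14 CPM in EpiLC KO and 4.26 to 5.11 CPM in EpiLC WT, with 21.6% of its exon bases shared with opposite-strand annotations (log2 fold change 0.60 ± 0.25 SE, adjusted p = 0.122). H13, a signal peptide peptidase, had a log2 fold change of −0.30 ± 0.13 (adjusted p = 0.128) in EpiLCs and Zrsr1, a splicing factor retrogene, 0.45 ± 0.20 (adjusted p = 0.183) in naive cells. Peg13, a paternal non-coding RNA, had 0.620, 0.608 and 2.11 CPM in EpiLC KO, against 0.242, 0.784 and 0.166 CPM in EpiLC WT, and 0.178, 0.306 and 2.37 CPM in naive KO, against 0, 0.321 and 0 CPM in naive WT. Library 3 was the highest KO library in both conditions, and the log2 fold changes of 1.51 ± 1.05 and 3.17 ± 1.25 had adjusted p-values of 0.368 and 0.142.

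Several members differed widely between clones of a genotype. Libraries of the same genotype and number deviated together across conditions over all genes, with correlations between 0.145 and 0.264, each highest for its own number, so the numbers were read as clones. WT clone 2 had the highest Peg10 of its genotype in both conditions, at 424 CPM in EpiLCs beside 83.4 and 109 CPM in the other WT clones, and at 80.02 CPM in naive cells beside 12.1 and 22.4 CPM. It was also the highest WT clone for Sgce, Ppp1r9a, Plagl1, Mest and Nap1l5 in both conditions, and had the lowest WT levels of Meg3, Rian and Mirg in EpiLCs. WT clone 1 was the lowest for Mest, at 27.2 CPM in EpiLCs beside 135 and 95.8 CPM and at 1.19 CPM in naive cells beside 10.3 and 9.56 CPM.

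Over the 35 tested members, the same KO clone was highest in both conditions for 21, or 60.0%, and the same WT clone for 23, or 65.7%, beside 44.7% and 46.4% of all genes tested. The same KO clone was lowest for 15, or 42.9%, and the same WT clone for 23, or 65.7%, beside 43.0% and 45.8% of all genes. These are descriptions of 6 clones, and the cause of the differences between clones was not tested.

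**Figure D5:**
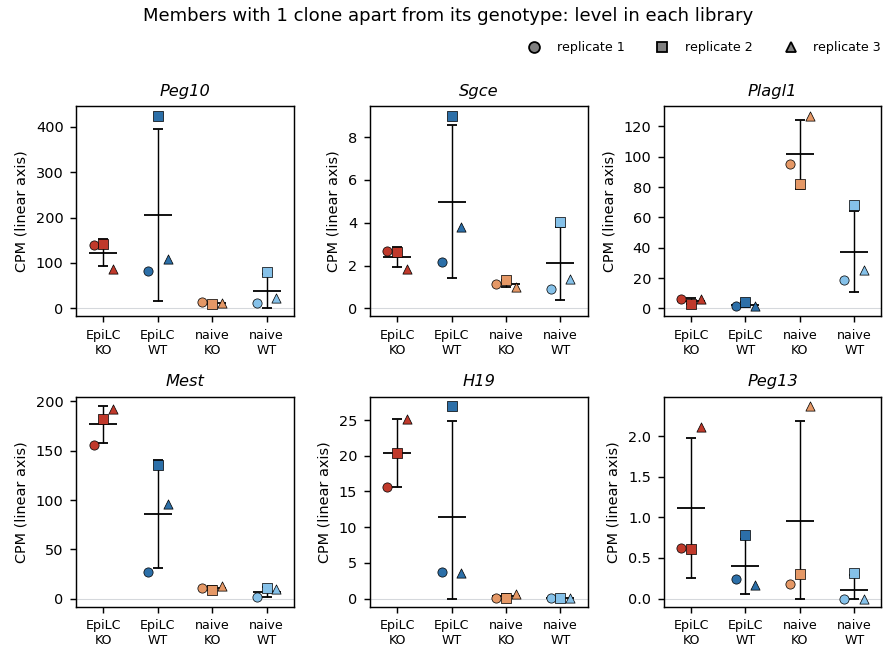
Level in CPM (linear axis) of 6 imprinted genes in which a single clone stood apart, with replicate numbers as symbols and the mean and SD of 3 libraries as line and bars (lower bars stopped at 0). WT clone 2 (square) is the highest WT library of Peg10, Sgce, Plagl1 and Mest in both conditions and of H19 in EpiLCs, and KO clone 3 (triangle) is the highest library of Peg13 in both.

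Levels of different members are compared per kilobase of exon. In EpiLC KO the highest mean levels were those of Snrpn at 59.7 ± 22.2, Impact at 52.8 ± 4.94, Mest at 44.8 ± 4.68 and Meg3 at 20.5 ± 3.10 CPM per kb (SD, n = 3). In EpiLC WT they were Snrpn at 55.6 ± 10.4, Grb10 at 34.2 ± 11.6, Impact at 31.6 ± 10.1 and Peg10 at 30.8 ± 28.4 CPM per kb. Grb10 stood at 6.32 ± 2.28 CPM per kb in EpiLC KO. In naive KO the order began with Impact at 38.0 ± 6.65, Igf2r at 34.3 ± 1.91 and Meg3 at 17.5 ± 0.213 CPM per kb, and in naive WT with Igf2r, Impact at 26.4 ± 6.88 and Grb10 at 10.1 ± 2.61 CPM per kb. The ranges of mean ± SD of Impact and Igf2r overlapped in naive KO and in naive WT, as did those of Snrpn and Impact in EpiLC KO.

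Between conditions, 23 of the 35 members were called in KO clones, 19 higher in EpiLCs and 4 lower, which is 65.7% of them against 55.2% of all genes tested, of which 27.1% rose and 28.1% fell. In WT clones 23 were called, 20 higher and 3 lower, again 65.7%, against 52.7% of all genes, of which 26.4% rose and 26.3% fell. EpiLC and naive libraries did not overlap for 29 of the 35 members in KO and 23 in WT clones, against 64.2% and 59.2% of all genes. The median log2 fold change over the members was 0.94 in KO and 0.86 in WT clones, against −0.04 and −0.01 over all genes. Without EpiLC WT library 2 the WT count was 27, against 52.9% of all genes then tested. These comparisons share no library with each other. Among the rises were those of Dlk1, by 6.11 in KO and 4.26 in WT clones (adjusted p = 6.87e-07 and 5.63e-06), H19, by 5.95 and 7.08 (adjusted p = 9.28e-05 and 9.35e-05), and Cdkn1c, by 5.18 and 2.83 (adjusted p = 2.47e-07 and 1.5e-05). The value of H19 in WT was 5.44 without EpiLC WT library 2, and in KO 7.14 without naive KO library 3. The naive counts of Dlk1 lay between 1 and 9 per library, so its fold is uncertain: without naive WT library 2 it was 5.02 in WT. The filter on low counts kept Dlk1, H19 and Magel2 only through the EpiLC libraries, where they were high. Their rises were thus largely fixed once they were tested, and they count among the 23 members called in each genotype.

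Other rises in both genotypes were those of Peg10, by 3.33 in KO and 2.43 in WT clones, Ppp1r9a, by 2.15 and 1.20, Rtl1, by 2.87 and 1.98, Usp29, by 1.73 and 1.504, Phlda2, by 1.98 and 1.47, and Ascl2, by 1.43 and 2.31. That of Peg10 in WT was 1.34 without EpiLC WT library 2, with an adjusted p of 0.0566, and 3.55 without naive WT library 2. Nap1l5 rose by 1.51 in KO and 3.27 in WT clones, the WT value being 4.09 without naive WT library 2 and 2.65 without EpiLC WT library 2. Its KO call was lost without naive KO library 1 or 2 or EpiLC KO library 3 (1.06, adjusted p = 0.133). Gnas, Zim1 and Kcnq1ot1 were called in KO clones and not in WT clones, and Grb10, H13 and Meg3 in WT clones and not in KO clones. H13 had an adjusted p of 0.0712 in KO clones and passed there with RLE scaling (0.32, adjusted p = 0.0471), with DESeq2 (adjusted p = 0.0432), with the clone as a block (adjusted p = 0.0215), with the 2 KO groups alone (adjusted p = 0.0375) and without naive KO library 1 (adjusted p = 0.0434). The call of Zim1 was lost without naive KO library 2 or 3 or EpiLC KO library 1 (its value without naive KO library 1 was 2.00), that of Peg3 in WT clones without naive WT library 1 or 2, and that of Meg3 with only the 2 WT groups fitted (0.57, adjusted p = 0.0933) and without naive WT library 2 or 3 or EpiLC WT library 1 (0.31, adjusted p = 0.211) or 3. None of the 35 members passed the test of the difference between the 2 genotypes, against 0.381% of all genes tested. By edgeR's unadjusted p, 9 were under 0.05, or 25.7%, against 12.3% of all genes tested. DESeq2 called 3 of the 38 members (7.9%), which were Cdkn1c, Grb10 and Nnat, against 513 of 17741 genes with an adjusted p (2.89%).

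A list of 41 other imprinted genes, of which 34 were tested, was set beside the members. In EpiLCs 3 rose and 2 fell, or 14.7%, against 15.1% of all genes tested, with a median log2 fold change of −0.03. In naive cells 3 rose and 3 fell, or 17.6%, against 9.23% of all genes, with a median of 0.13. Sfmbt2, a Polycomb-related gene of the placenta, rose in both conditions (1.08, adjusted p = 0.0212 in EpiLCs and 1.20, adjusted p = 0.017 in naive cells). Atp10a, a phospholipid transporter, fell in naive cells (−2.77, adjusted p = 0.00489), and Kcnk9, a potassium channel, rose in EpiLCs (3.06, adjusted p = 0.0121). Kcnk9 had 0.574, 0.396 and 0.732 CPM in EpiLC KO, against 0.0537, 0.149 and 0 CPM in EpiLC WT. It passed the filter on low counts only through the EpiLC KO libraries, where it was high. Its rise was thus largely fixed once it was tested, and it counts among the 3 that rose.

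Of 25 regulators of imprints, all tested, 1 rose and 1 fell in EpiLC KO, or 8%, against 15.1% of all genes. In naive KO 1 fell, or 4%, against 9.23% of all genes. Ehmt2, the histone H3 lysine methyltransferase G9a, had 55.0, 46.0 and 50.1 CPM in EpiLC KO, against 187, 182 and 152 CPM in EpiLC WT, and 86.2, 59.5 and 65.9 CPM in naive KO, against 209, 169 and 200 CPM in naive WT. It fell in both conditions, by 1.79 and 1.45 on the log2 scale (adjusted p = 4.23e-05 and 0.000186), with no overlap. Zfp445, a zinc-finger protein that maintains imprints, rose by 0.45 in EpiLCs (adjusted p = 0.00648). The DNA methyltransferases Dnmt3a, Dnmt3b and Dnmt3l rose with the EpiLC condition in both genotypes, by 5.70, 4.14 and 6.56 in KO and by 6.29, 4.98 and 6.64 in WT clones on the log2 scale, and were not called between KO and WT. The part of these regulators in the levels of the members was not tested.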

How the data were processed

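Polyadenylated RNA of 12 libraries was sequenced with a stranded kit, per the labels' protocols. The authors deposited raw read counts per gene, made with featureCounts 2.0.1 on GENCODE vM25 (GRCm38, mm10); STAR, fastp, FastQC and DESeq2 are also named in the submitters' processing notes. The counting options are per the file headers the unstranded default, in which reads shared by overlapping genes are dropped. Depth was 27146744 to 42204511 counts per library. Of 55487 rows, 346 had no symbol.

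A gene was kept with a level of about 10 reads in at least 3 libraries and 15 reads in total, by edgeR's filterByExpr. It does not ask for 10 reads in every library, and it left 18134 genes. Counts were scaled by TMM and fitted over all 4 groups with edgeR 4.0.16 (R 4.3.3, limma 3.58.1). Its quasi-likelihood test was used with Benjamini-Hochberg adjustment at 0.05. CPM are TMM-scaled, and SE is the log2 fold change over the root of F. The test was tested on simulated data. DESeq2 1.42.0, other scaling, no filter, a replicate block, the 2 groups alone and each library left out were tried. Same-numbered libraries of a genotype deviated together across conditions (correlations 0.145 to 0.264), so numbers were read as clones there; KO and WT libraries share only a number. The design calls the clones independent, with 3 clones a group. The p-values rest on a spread pooled over all 4 groups, with 8 residual degrees of freedom. That fit takes the 12 libraries as independent, although each clone gave 2 of them. With only the 2 EpiLC groups fitted, 10 of 35 members (28.6%) and 1975 genes (11.7%) were called between KO and WT. With only the 2 naive groups, 8 of 32 members (25.0%) and 1437 genes (8.84%) were called. Every member is accounted for by locus, those called between KO and WT with all 12 libraries. Of each list, up to 4 called genes with the smallest adjusted p were to be named. Sfmbt2, Krt18, Tfap2c, Sox17, Sox7, Amn, Apoa1, the Dnmt3 genes and the neighbours were named after their values were seen. The members and lists were chosen with earlier results of these data known.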

Additional observations from a re-analysis of the deposited data

Results flagged for a closer look

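Cdkn1c was singled out because its difference between KO and WT had opposite signs in the 2 conditions. The log2 fold change was 1.04 in EpiLCs and −1.30 in naive cells, and the difference between them was 2.34 ± 0.46 (SE), with an unadjusted p of 0.000239 and an adjusted p of 0.0571 in edgeR's interaction test. It passed with DESeq2 (2.36, adjusted p = 0.000155), without the filter on low counts (2.32, adjusted p = 9.19e-05), with the clone as a block (2.33, adjusted p = 0.0302) and without EpiLC KO library 3 (2.60, adjusted p = 0.0346). It did not pass under RLE scaling or in the other 11 fits that each left a library out.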

How the results depend on the processing

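No call of a member between KO and WT reversed under any of the 11 alternatives. Phlda2 and Slc22a18 in both conditions, Grb10, Nnat and Rtl1 in EpiLCs and Mirg in naive cells stayed past the threshold under all 11. For Slc22a18, which the filter kept only through the WT libraries, this was largely fixed once it was tested. The EpiLC count of 12 members lay between 5 and 12 with a library left out. The naive count of 7 was 15 of 38 (39.5%) without the filter on low counts and 3 to 6 with a library left out. Over all genes, with a library left out, the EpiLC count of 2734 lay between 1375 and 3117. The naive count of 1673 then lay between 678 and 1744. Without the filter 36121 genes were tested, and 2319 of them (6.42%) were called in naive cells and 3385 (9.37%) in EpiLCs. In EpiLCs 16 of 38 members (42.1%) were then called, Mest, Plagl1, Meg3 and Rian among those added. For the difference between the 2 genotype effects, the count of 0 was 3 of 38 (7.9%) with DESeq2 and 2 of 38 (5.26%) without the filter. It was 1 of 35 (2.86%) with the clone as a replicate block and 0 to 1 with a library left out. Over all genes it was 69 (0.381%), and 513 (2.89%), 564 (1.56%) and 228 (1.26%) under the same first 3. The causes were not tested.

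With the replicate number as a block, 12 members (34.3%) were called in EpiLCs and 7 (20.0%) in naive cells, against 14.1% and 8.87% of all genes. Nap1l5 was lost in naive cells (adjusted p = 0.0555) and Ppp1r9a gained (adjusted p = 0.0497). KO and WT libraries of the same number correlated between −0.266 and 0.00374, so this number pairs nothing there. With the clone as a block, 27 members (77.1%) in KO and 26 (74.3%) in WT changed between conditions, against 23 in each. Over all genes the counts were 11043 (60.9%) and 10484 (57.8%), against 10010 and 9553. Over all genes the naive count of 1673 was 678 without KO library 1 and 850 without WT library 3, and the EpiLC count of 2734 was 1375 without KO library 1. Depth limits Slc22a18, Asb4, Nap1l5, Magel2 and naive Dlk1 and H19, which rest on few reads.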
